A study of Mus musculus with 20 samples.

Results

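Respiratory chain transcripts were examined in the lumbar dorsal root ganglia of adult mice with or without an induced deletion of Prdm12, a zinc finger regulator of nociceptive sensory neurons. The set holds 36 genes, listed by symbol: the 13 protein genes of the mitochondrial genome and 23 nuclear genes for subunits of complexes I to V. They were chosen with earlier results of these data known. All 36 were matched by Ensembl identifier among the 55416 genes in the count files. The comparison of most interest was between the mitochondrially encoded and the nuclear subunits.

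The study took ganglia L3 to L5 from C57Bl6 mice, 1 month after tamoxifen, with formalin or without injection (noninjected). All groups carried floxed Prdm12 on both alleles (Fl/Fl) and received tamoxifen, so the controls differ from wild-type mice too. The inducible conditional knockout (icKO) group also carried a tamoxifen-activated Cre. The sample characteristics name AdvCreERT2, in which the sensory neuron gene Avil drives Cre, whereas the design text names Rosa26CreERT2, which is not limited to neurons. Each of 10 animals gave a formalin and a noninjected library of polyA RNA, and 1 library (animal titled icKO 1, formalin, 2829 counts) was left out as too small. The 19 libraries used hold 11763893 to 22392635 counts.

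The genotype of 4 of the 10 animals differs between 2 records. The animals titled control 1 and control 4 are icKO by the genotype word in the deposited name, and those titled icKO 2 and icKO 3 are control by that word. Prdm12 in noninjected libraries was 74.7 to 98.8 CPM (read counts scaled to the TMM-corrected library total) in the 5 animals that are control by deposited name and 22.2 to 38.1 CPM in the 5 that are icKO by deposited name. The animals titled control 1 and control 4 had 23.1 and 38.1 CPM, against their titles, and those titled icKO 2 and icKO 3 had 74.7 and 81.4 CPM. Results are therefore given by deposited name first, then by title and for the 6 animals whose records agree. Animals are called by title throughout. The 14 sensory neuron markers (Avil, Prph, Scn10a and others) had counts in every library, with a summed level of 14530 to 24290 CPM. Schwann cell, satellite glia, blood and muscle markers were also detected, so each level is that of a mixed tissue. In such tissue fewer cells of a type and less RNA per cell cannot be told apart.

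The respiratory chain moves electrons from NADH and succinate to oxygen through complexes I to IV, and ATP synthase (complex V) uses the resulting proton gradient to make ATP. Most subunits are nuclear genes whose proteins are imported, while a small core set is encoded by mitochondrial DNA and transcribed there as long precursor RNAs by a dedicated polymerase. Mitochondrial protein genes lie close together on that genome and their RNAs are cut from the precursors at the tRNAs between them. Sensory neurons keep many mitochondria in the cell body and along the axon.

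Of the 13 mitochondrially encoded genes, 6 neighbours had no or almost no counts, although they lie between a pair of well counted genes. mt-Co2, mt-Atp8, mt-Co3 and mt-Nd4l had 0 counts over the 19 libraries, mt-Atp6 (the a subunit of ATP synthase) had 1, and mt-Nd3 had 140, a mean of 0.449 CPM. By contrast mt-Co1, the neighbour on one side, had 4417812 counts and mt-Nd4, the neighbour on the other, 1298927. A count of 0 allows up to 3 counts over the libraries together, for counting error only. Most of this stretch of the mitochondrial genome also exists as a nuclear copy: annotated nuclear pseudogenes hold 100% of the 50-base stretches of mt-Co2, 99.9% of mt-Co3, 99.5% of mt-Atp6, 98.8% of mt-Nd4l and 98% of mt-Nd3. The share was 62.2% for mt-Nd4 and 51.1% for mt-Co1, under 9% for mt-Nd2 (8.19%) and mt-Nd5 (7.61%), and 0% for mt-Nd1, mt-Nd6 and mt-Cytb. mt-Atp8 goes against this order: it had no annotated copy of its own and still had 0 counts, and it sits between mt-Co2 and mt-Atp6.

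**Figure D1:**
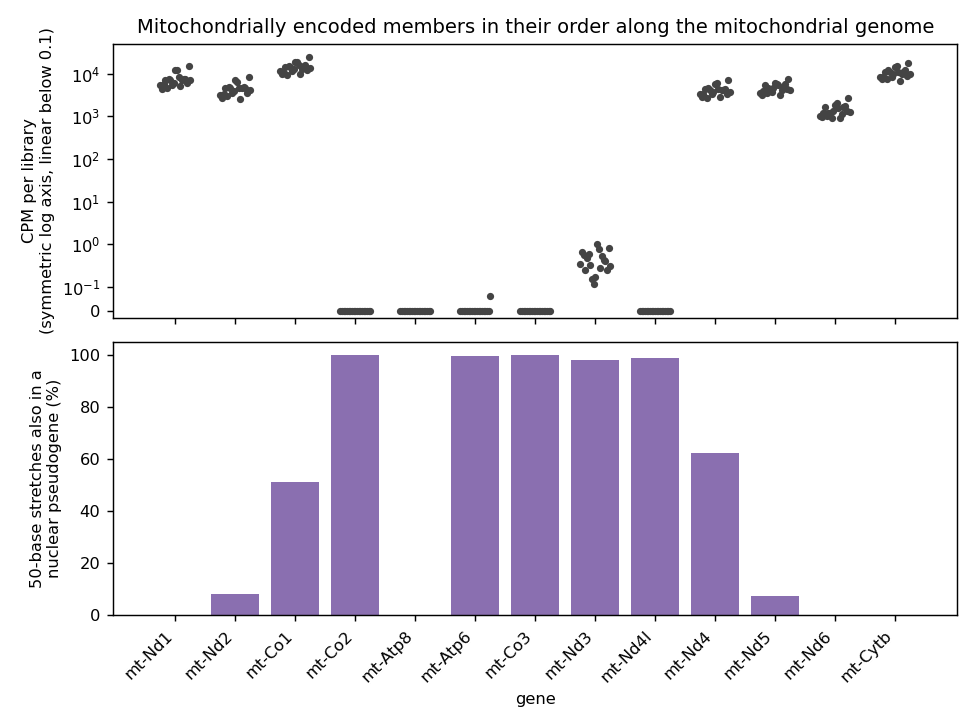
Upper panel: CPM of each mitochondrially encoded gene in the 19 libraries (1 point per library, symmetric log axis) in genome order. Lower panel: percent of each gene's 50-base stretches also found in an annotated nuclear pseudogene. The 6 genes from mt-Co2 to mt-Nd4l lie at or near 0 CPM, and 5 of those 6 have shares of 98% to 100%.

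The first 60 bases of 2 of these genes beside their copies on nuclear chromosome 1 show how close the pairs are, from the transcripts of GENCODE M21. Capitals mark the bases that differ within a pair, and positions count from 1 at the start of the mitochondrial transcript.
mt-Nd3: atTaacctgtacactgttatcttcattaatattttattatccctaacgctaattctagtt
Gm28438: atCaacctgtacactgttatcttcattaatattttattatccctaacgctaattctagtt
mt-Co2: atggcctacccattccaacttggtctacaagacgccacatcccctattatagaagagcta
Gm28661: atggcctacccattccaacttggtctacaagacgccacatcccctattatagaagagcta
mt-Nd3 differs from Gm28438 at 1 of 345 aligned bases (T3C), and mt-Co2 does not differ from Gm28661 over 681 aligned bases. mt-Co3 and Gm28437 were also identical over 783 bases, mt-Atp6 and Gm10925 over 678, and mt-Nd4l and Gm10222 over 294. Reads from inside such a stretch match both places equally well. The copies themselves had few counts over the 19 libraries: 59 for Gm28438, 88 for Gm28661, 74 for Gm28437, 58 for Gm10925 and 4 for Gm10222.

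mt-Co1, which was counted at a high level, is shown for contrast. Its copy Gm29216 starts at base 1054 of mt-Co1 and covers the last 492 of 1545 bases.
mt-Co1: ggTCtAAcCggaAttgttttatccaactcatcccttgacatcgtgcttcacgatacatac
Gm29216: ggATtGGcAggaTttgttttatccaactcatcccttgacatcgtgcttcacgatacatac
The pair was identical at 486 of 492 bases, and the 6 differences all fall in the first bases shown. mt-Nd4 was identical to Gm28439 over 876 of its 1378 bases. No source used here says whether reads that match more than 1 place were counted, so the levels of mt-Co1 and mt-Nd4 may leave out part of each gene. The values of mt-Co2, mt-Atp8, mt-Co3, mt-Nd4l, mt-Atp6 and mt-Nd3 are no measure of their expression, and no conclusion is drawn from a fold of theirs. Among nuclear members the same holds in part for Cox7c, with 53% of its 50-base stretches in pseudogenes and the lowest level of the 23 (16.1 CPM).

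Per length, the 7 well counted mitochondrial genes stood above each nuclear member. On the scale of CPM per kb of transcript, averaged over 19 libraries, mt-Cytb (the cytochrome b of complex III) had 9262, mt-Co1 (the catalytic subunit of complex IV) 9139 and mt-Nd1 7815. mt-Nd2, mt-Nd4, mt-Nd6 and mt-Nd5 had 4327, 3019, 2721 and 2545 CPM per kb. The highest nuclear members were Atp5b (the catalytic beta subunit of ATP synthase) at 677, Ndufa4 (named for complex I, found in complex IV) at 661 and Cox4i1 at 541 CPM per kb. Libraries differed more in the mitochondrial genes than in the nuclear ones: the coefficient of variation of CPM over the 19 libraries was 24.0% (mt-Nd5) to 37.7% (mt-Nd1) for the 7, and 5.39% (Ndufs1, a complex I core subunit) to 24.2% (Cox6c) for the 23. This spread includes the differences between the groups.

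In noninjected ganglia, the mitochondrially encoded transcripts were lower in icKO than in control by deposited name. The summed level of the nuclear members was about the same, while single nuclear members differed in both directions. Their log2 differences ran from -0.31 to 0.37, with 10 positive and 13 negative. The summed level of the 13 mitochondrial genes was 48604, 47312, 42587, 66684 and 49066 CPM in the controls (animals titled control 2, icKO 2, icKO 3, control 3 and control 5). It was 31252, 31724, 31150, 39658 and 43786 CPM in the icKO animals (titled control 1, icKO 1, control 4, icKO 4 and icKO 5). These come to 50850 ± 9216 CPM (SD, n = 5) and 35510 ± 5856 CPM (SD, n = 5), and the groups overlap only in that the highest icKO animal, a male, lies above the lowest control, a female. Within females the controls were at 42587 to 48604 (n = 3) and the icKO at 31252 and 31724 (n = 2), and within males the controls were at 49066 and 66684 and the icKO at 31150 to 43786 (n = 3), with no overlap in either sex. The nuclear sum was 6195 ± 479 CPM in control and 6136 ± 299 CPM in icKO (SD, n = 5 each).

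**Figure D2:**
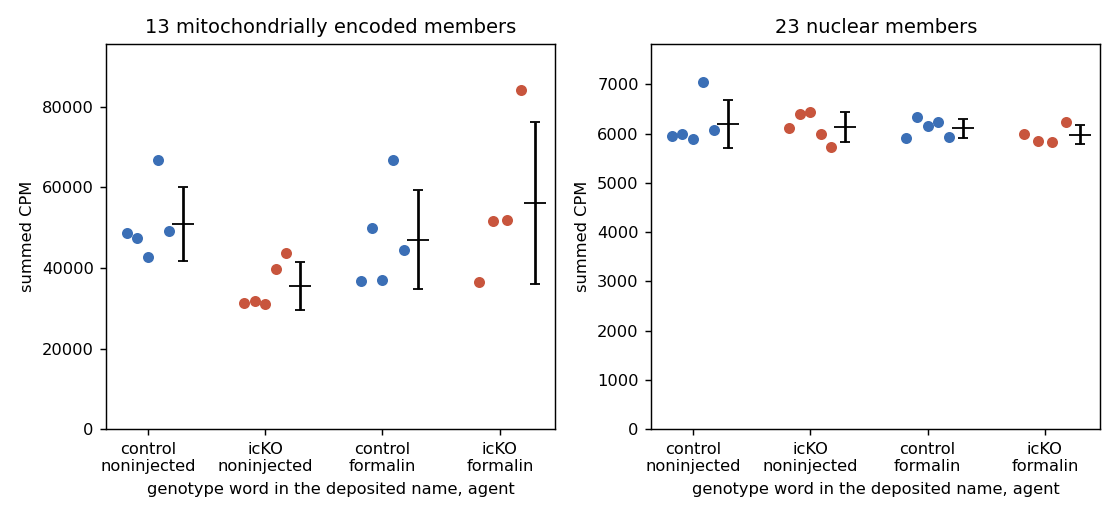
Summed CPM of the 13 mitochondrially encoded (left) and 23 nuclear members (right) in each library, by genotype word in the deposited name and agent, with mean ± SD. In noninjected ganglia the mitochondrial sum is 50850 in control and 35510 in icKO, and the nuclear sums are 6195 and 6136.

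Gene by gene, all 7 well counted mitochondrial genes fell in noninjected icKO ganglia and 2 nuclear genes rose. With edgeR's quasi-likelihood test, sex as a covariate and Benjamini-Hochberg adjustment over 17931 genes at a threshold of 0.05, 9 of the 31 members that passed the low-count filter were called, beside 8.39% of all genes tested. Of the 31, 7 were called lower, beside 3.57% of all genes, and 2 higher, beside 4.81%. In the same edgeR test 18 of 31 members had an unadjusted p under 0.05, 7 of these mitochondrial, beside 26.4% of all genes. The fit also held the formalin libraries and treated libraries of 1 animal as independent. The 31 are 8 mitochondrial and all 23 nuclear members, and mt-Nd3, which also passed, had a log2 difference of -0.08 (SE 0.52). The median log2 fold change was -0.60 for the 8 mitochondrial genes, -0.07 for the 23 nuclear genes and -0.01 for all genes. Without mt-Nd3, which later mitochondrial medians include too, the mitochondrial median was also -0.60. The members were chosen with earlier results of these data known, so these counts describe the set and are not independent evidence of its direction.

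Of the complex I core subunits, mt-Nd1 was at 7325, 7023, 6116, 12080 and 7465 CPM in control and 4472, 4591, 5104, 5930 and 7092 CPM in icKO, in the order of animals above. The groups overlapped and the log2 fold change was -0.66 (SE 0.20, edgeR adjusted p = 0.0435). mt-Nd2 was at 4557, 4649, 3941, 6565 and 4813 CPM in control and 2734, 3012, 2560, 3533 and 4062 CPM in icKO, with 1 icKO animal (titled icKO 5) above 1 control. Its fall of 0.71 on the log2 scale was the largest among the members (SE 0.19, edgeR adjusted p = 0.0297). mt-Nd4 was at 4354, 4234, 3693, 5921 and 4272 CPM in control and 2869, 2730, 2889, 3420 and 3789 CPM in icKO, again with the animal titled icKO 5 just above the lowest control. It fell by 0.59 (SE 0.15, edgeR adjusted p = 0.0231).

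mt-Nd5, the next complex I gene along the genome, was at 5331, 4467, 4548, 5778 and 4864 CPM in control and 3162, 3544, 3112, 4459 and 4199 CPM in icKO. Here the groups did not overlap, by a margin of a few CPM, and the log2 fold change was -0.50 (SE 0.14, edgeR adjusted p = 0.0332). mt-Nd6 is the one protein gene on the opposite strand of the mitochondrial genome. It was at 1665, 1199, 1358, 2106 and 1622 CPM in control and 980, 1002, 914.9, 1366 and 1248 CPM in icKO, overlapping, and fell by 0.61 (SE 0.18, edgeR adjusted p = 0.0414). The library kit does not mark strand, so reads from mt-Nd6 and from the RNA opposite it cannot be told apart.

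mt-Co1 of complex IV was at 14440, 14460, 13090, 19030 and 14900 CPM in control and 9681, 9326, 9860, 12150 and 13730 CPM in icKO. Only the animal titled icKO 5 reached the control range, and the log2 fold change was -0.55 (SE 0.15, edgeR adjusted p = 0.0294). mt-Cytb of complex III was at 10930, 11280, 9837, 15200 and 11130 CPM in control and 7353, 7519, 6710, 8796 and 9665 CPM in icKO. Those groups did not overlap, and the log2 fold change was -0.60 (SE 0.16, edgeR adjusted p = 0.0257). The animal titled control 3 was the highest in each of these 7 genes. The log2 folds of the 7 had a range of -0.71 to -0.50, and the mean log2 difference of the summed levels was -0.52, against -0.01 for the nuclear sum.

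The 2 nuclear genes that rose both belong to complex III. Uqcrc1, a core subunit on the matrix side, was at 169.6, 169.7, 191.9, 175.8 and 193.9 CPM in control and 222.7, 279.5, 226.6, 219.1 and 201.4 CPM in icKO. All 5 icKO values lay above all 5 control values, and the log2 fold change was 0.37 (SE 0.09, edgeR adjusted p = 0.0205). Uqcrfs1, the Rieske iron-sulfur protein, was at 71.4, 75.7, 85.2, 88.3 and 82.9 CPM in control and 92.3, 103.6, 95.7, 94.2 and 95.6 CPM in icKO. These groups did not overlap either, with a log2 fold change of 0.26 (SE 0.08, edgeR adjusted p = 0.0457). The third member of that complex among the nuclear genes, Uqcrc2, stood on the other side of 0, at 194.1, 201, 220.1, 215.7 and 193.7 CPM in control and 190.7, 178.7, 176.4, 195.9 and 157.1 CPM in icKO, a log2 difference of -0.18 (SE 0.07, edgeR adjusted p = 0.1, not called).

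**Figure D3:**
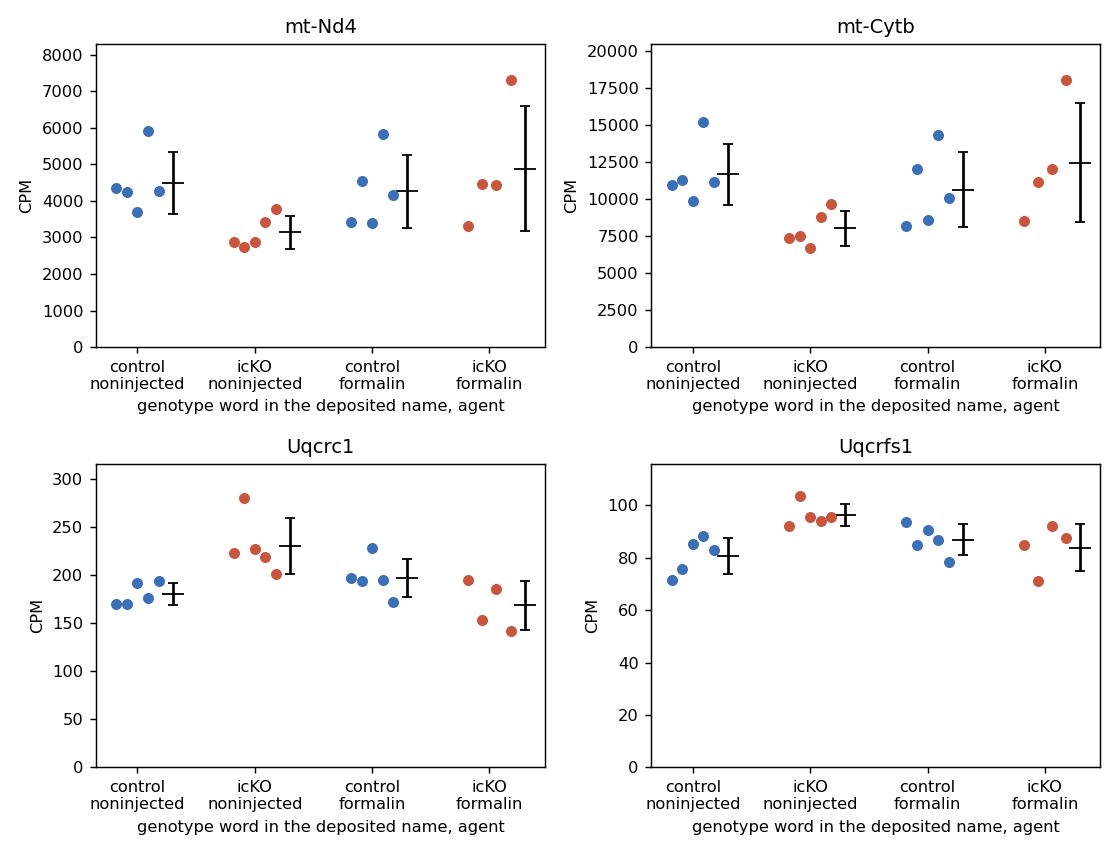
CPM in each library of 2 mitochondrially encoded (mt-Nd4, mt-Cytb) and 2 nuclear complex III genes (Uqcrc1, Uqcrfs1), by genotype word in the deposited name and agent, with mean ± SD. In noninjected ganglia every icKO library lies below every control library for mt-Cytb and above for Uqcrc1 and Uqcrfs1.

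The other 21 nuclear members were not called in noninjected ganglia, and their log2 differences ran from -0.31 (Cox7c) to 0.17 (Atp5a1, the alpha subunit of ATP synthase). The 3 smallest p-values among them belonged to Ndufa4 (log2 difference -0.30, SE 0.10, edgeR adjusted p = 0.065), Cox6b1 (-0.29, SE 0.10, adjusted p = 0.0884) and Ndufb5 (-0.29, SE 0.11, adjusted p = 0.0951). The first is a small subunit found in complex IV, the second joins the monomers of complex IV and the third is an accessory subunit of complex I. Atp5b was at 1254, 1266, 1317, 1316 and 1317 CPM in control and 1374, 1502, 1338, 1310 and 1189 CPM in icKO, with wide overlap. Cox4i1, the largest nuclear subunit of complex IV, was at 431.8, 434.3, 381.3, 493.5 and 394 CPM in control and 409.1, 388.7, 472.3, 388.5 and 393.4 CPM in icKO, likewise overlapping. Sdha, the flavoprotein of complex II, which has no mitochondrially encoded subunit, was at 261.3, 268.1, 289, 288.1 and 291.1 CPM in control and 295.4, 335.7, 286.8, 298.8 and 307.9 CPM in icKO. All but 1 of its icKO values lay above the control values, and the log2 difference was 0.12 (SE 0.07, not called). Ndufv1, the NADH-binding subunit of complex I, was at 201.9, 201.5, 179, 204.1 and 196.5 CPM in control and 222.2, 204.9, 237.2, 191.8 and 168.3 CPM in icKO, overlapping.

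The fall of the mitochondrial genes in noninjected icKO ganglia rests on few animals where its calls are concerned, and less so in its size. Leaving out the animal titled control 2, icKO 1 or control 3 left 0 members called, leaving out icKO 2, icKO 3 or control 4 left 3, icKO 4 left 4 and control 1 left 6, while 9 and 10 were called without icKO 5 and control 5. Over these 10 fits 345 to 2129 genes were called in all, and the median of the mitochondrial genes was -0.69 to -0.50. DESeq2 called 11 members, beside 12.6% of genes. Without the sex term 2 members were called, both nuclear, and the mitochondrial median was -0.52. The count of all genes called without that term is not given here, so no share stands beside the 2.

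Few genes of the wider respiratory chain were called in the same comparison. Over all 17931 genes tested, 4.81% were called higher and 3.57% lower, and 9300 had a negative difference. Of 31 further complex I genes 0 were called (edgeR, 27 of 31 with a negative difference, median -0.12); the smallest p-values were those of Ndufb2 (-0.28, adjusted p = 0.0588) and Ndufc2 (-0.33, adjusted p = 0.0605). Of 10 further genes of complexes II to IV, Cyc1 (cytochrome c1 of complex III) rose by 0.27, from 108 ± 4.66 to 130 ± 11.6 CPM, and Uqcrh (the hinge protein of the same complex) fell by 0.44, from 275 ± 60.7 to 212 ± 20.3 CPM. Of 14 further complex V genes, Atp5d rose by 0.33. Among 32 tested assembly factors, Ndufaf4 (complex I assembly) fell by 0.33. So of the complex III genes named here Uqcrc1, Uqcrfs1 and Cyc1 rose and mt-Cytb and Uqcrh fell.

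Other RNAs of the mitochondrial genome also had negative differences: 13 of 13 tested rRNA and tRNA genes, with a median of -0.44, of which mt-Te (glutamate tRNA) was called, at 4.32 ± 1.29 CPM in control and 2.53 ± 0.62 CPM in icKO (log2 -0.90, edgeR adjusted p = 0.0438). The summed level of the rRNA and tRNA genes was 1791 ± 399 CPM in control and 1642 ± 250 CPM in icKO (SD, n = 5 each), with overlapping ranges. PolyA selection retains such RNAs poorly. Of 35 genes for mitochondrial transcription, RNA processing and translation, 1 rose and 3 fell. Tsfm (a translation elongation factor) rose by 1.76, from 13.1 ± 1.06 to 44.4 ± 3.12 CPM. It lies near Avil, the gene whose promoter drives the Cre named in the sample characteristics. Whether its place bears on its level was not tested. Mterf3 and Mterf4, of the mitochondrial transcription termination factor family, fell by 0.44 and 0.36, and Fastkd2, an RNA-binding protein of mitochondrial RNA granules, fell by 0.34. Among 12 regulators of mitochondrial biogenesis Gabpa, a subunit of nuclear respiratory factor 2, fell by 0.29. In glycolysis 3 of 17 genes rose (Hk1 by 0.54, Pfkl by 0.37, Pfkm by 0.31) and in the citric acid cycle 1 of 18 rose (Ogdh by 0.41), with 0 called lower in either list. Over all 17931 genes tested, 4.81% were called higher and 3.57% lower, and 9300 had a negative difference. The lists here were drawn up with earlier results of these data known.

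Several cell type and RNA measures moved beside these differences, and their part in them was not tested. In noninjected libraries the summed level of the 14 sensory neuron markers was 15590 to 20370 CPM in control and 18750 to 24290 CPM in icKO by deposited name, with none of the 14 called. The 9 Schwann cell markers summed to 4611 to 5680 and 3450 to 5070 CPM, and Ncmap, a myelin protein gene among them, fell by 0.58. The 8 macrophage markers summed to 170 to 305 and 149 to 228 CPM, the 7 erythroid markers to 159 to 368 and 243 to 801 CPM, the 6 neutrophil markers to 221 to 591 and 305 to 1162 CPM (all 6 differences positive, median 0.98), and the 12 skeletal muscle markers to 99.2 to 117 and 77.3 to 119 CPM, with 0 called in each list. The summed level of 38 ribosomal protein genes was 4280 ± 810 CPM in control and 3854 ± 401 CPM in icKO, with 34 of 38 differences negative and 1 (Rpl4) called. Neat1, a long RNA kept in the nucleus, fell by 0.52. None of these marker lists had a member at 0 in every library. Over all genes tested, 8.39% were called and 9300 of 17931 had a negative difference.

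With formalin, 0 of 31 members were called between icKO and control by deposited name, beside 3.89% of 17931 genes tested with edgeR (0 of 31 members also had an unadjusted p under 0.05, beside 18.6% of all genes). The mitochondrial sum was 36800, 49968, 37100, 66834 and 44454 CPM in control and 36470, 51586, 51981 and 84110 CPM in icKO (animals titled control 1, control 4, icKO 4 and icKO 5). The 3 lower icKO values lay near or inside the control range and the icKO 5 library above it, with means of 47030 ± 12360 CPM (SD, n = 5) and 56040 ± 20060 CPM (SD, n = 4). The median log2 difference of the 8 mitochondrial genes was 0.12 (0.10 without mt-Nd3), and -0.07 without the icKO 5 formalin library. That library had the highest mitochondrial sum and the highest skeletal muscle marker sum (2420 CPM, against 84.5 to 428 CPM in the other icKO formalin libraries). Its fibroblast (6077 CPM), macrophage (452 CPM), erythroid (1784 CPM) and ribosomal protein (5811 CPM) sums were also the highest of the 19 libraries. Its sensory neuron sum (14530 CPM) was the lowest. In this comparison 6 of 7 erythroid, 4 of 12 skeletal muscle and 2 of 6 neutrophil markers were called higher, beside 2.85% of all genes. The part of these measures was not tested.

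By gene with formalin, mt-Nd4 was at 3416, 4546, 3392, 5824 and 4174 CPM in control and 3306, 4475, 4425 and 7311 CPM in icKO, a log2 difference of 0.05 (SE 0.16). mt-Cytb was at 8192, 12010, 8594, 14300 and 10080 CPM in control and 8526, 11150, 12020 and 18040 CPM in icKO, a difference of 0.10 (SE 0.17). Apart from the single library of icKO 5, the icKO values lay inside the control range for mt-Cytb. mt-Nd6 had the largest difference of the 7, at 1218, 1223, 936.6, 1838 and 1110 CPM in control and 1041, 1556, 1769 and 2685 CPM in icKO (0.30, SE 0.19, edgeR adjusted p = 0.438).

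mt-Nd1 was at 5914, 7678, 5547, 12200 and 7031 CPM with formalin in control and 5418, 8334, 7525 and 15250 CPM in icKO. mt-Nd2 was at 3376, 4896, 3513, 7295 and 4690 CPM in control and 3198, 4760, 4652 and 8536 CPM in icKO. Both genes gave overlapping groups with the lowest and the highest value among the icKO animals. mt-Nd5 was at 3998, 4668, 3680, 6063 and 4255 CPM in control and 3570, 5316, 5645 and 7546 CPM in icKO. mt-Co1 was at 10690, 14950, 11440, 19310 and 13110 CPM in control and 11410, 15990, 15950 and 24750 CPM in icKO, also overlapping.

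Uqcrc1 with formalin was at 196.4, 193.3, 228.1, 194.3 and 171.8 CPM in control and 194.3, 153.2, 185.4 and 141.3 CPM in icKO, a log2 difference of -0.18 (SE 0.10, edgeR adjusted p = 0.366). Uqcrfs1 was at 93.9, 84.9, 90.7, 86.6 and 78.3 CPM in control and 84.7, 71.1, 92.2 and 87.7 CPM in icKO, a difference of -0.05 (SE 0.08). The order seen in noninjected ganglia, with each icKO library above each control library, was not seen here for either gene. Atp5b was at 1323, 1390, 1365, 1280 and 1311 CPM in control and 1367, 1196, 1165 and 1079 CPM in icKO. Cox4i1 was at 384.5, 442, 397, 417.8 and 375.8 CPM in control and 400.8, 435.1, 393.7 and 436.1 CPM in icKO. Both overlapped between the groups. Sdha was at 274.9, 271.6, 296.8, 296.5 and 281.9 CPM in control and 281.4, 247.6, 306.4 and 284.3 CPM in icKO. Ndufv1 was at 209.8, 203.5, 213, 183.1 and 190.3 CPM in control and 225, 199.1, 160.9 and 143.5 CPM in icKO, and Uqcrc2 at 182.3, 224.6, 205.6, 208.1 and 198.7 CPM in control and 194.8, 192.5, 188 and 195.1 CPM in icKO. In these 3 genes the groups overlapped as well, and none was called.

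**Figure D4:**
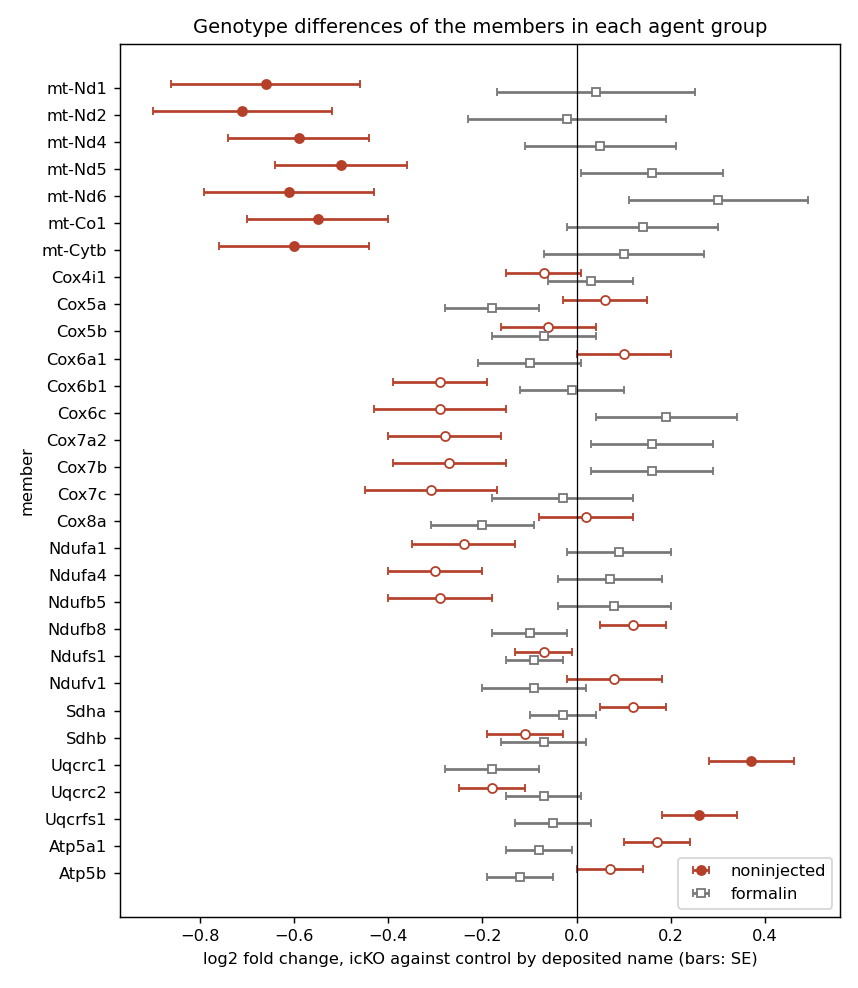
Log2 fold change (icKO against control by deposited name, bars SE) of 30 members in noninjected (circles, filled where called) and formalin ganglia (squares), without mt-Nd3. The 7 mitochondrial genes lie at -0.71 to -0.50 in noninjected ganglia and at -0.02 to 0.30 with formalin.

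Whether the genotype difference itself depends on formalin was tested as an interaction, and no gene was called by edgeR (0 of 17931 genes, with 4201, or 23.4%, at an unadjusted p under 0.05, among them 17 of 31 members, 7 of these mitochondrial; 850 by DESeq2, or 4.74% of genes, of which 6 were members). The smallest adjusted p among the members was that of Uqcrc1, with an interaction of -0.55 (SE 0.13, edgeR adjusted p = 0.11), followed by mt-Nd6 at 0.91 (SE 0.26, adjusted p = 0.111) and mt-Nd5 at 0.66 (SE 0.20, adjusted p = 0.117). The median interaction was 0.69 for the 8 mitochondrial genes, -0.01 for the nuclear genes and 0.03 for all genes. Without the animal titled control 1, edgeR called 5 of the members, beside 9.89% of all genes.

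Within animals, the mitochondrial sum was higher with formalin in each of the 4 icKO animals by deposited name and varied in sign in the controls. The log2 ratio of formalin to noninjected was 0.22, 0.73, 0.39 and 0.94 in the icKO animals (titled control 1, control 4, icKO 4 and icKO 5). It was -0.40, 0.08, -0.20, 0.00 and -0.14 in the control animals (titled control 2, icKO 2, icKO 3, control 3 and control 5). The nuclear sum moved less, by -0.18 to 0.12 over the 9 animals.

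**Figure D5:**
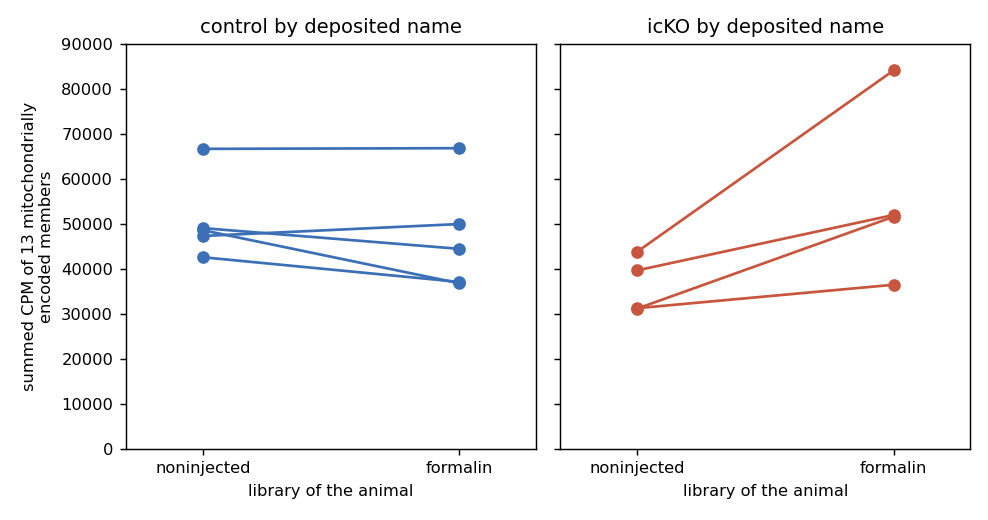
Summed CPM of the 13 mitochondrially encoded members in the noninjected and formalin library of each animal (lines join libraries of 1 animal), for 5 control and 4 icKO animals by deposited name. All 4 icKO lines rise, from 31150 to 43786 CPM without injection to 36470 to 84110 CPM with formalin.

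In the test of formalin against noninjected libraries within icKO animals, 0 of 17931 genes were called by edgeR (4170, or 23.3%, at an unadjusted p under 0.05, among them 18 of 31 members, 7 of these mitochondrial; 1120 called by DESeq2, or 6.25%). The test did not pair the libraries of an animal. The mitochondrial genes had a median log2 difference of 0.56, the nuclear genes 0.01 and all genes 0.02. Uqcrc1 had the smallest p of the members, at -0.43 (SE 0.10, edgeR adjusted p = 0.0887), then mt-Co1 at 0.56 (SE 0.16, adjusted p = 0.0905) and mt-Nd4 at 0.56 (SE 0.16, adjusted p = 0.0927). DESeq2 called 10 members, 7 mitochondrial higher and 3 nuclear lower, and without the animal titled control 1 edgeR called 7, beside 11.2% of all genes. Without the icKO 5 formalin library the mitochondrial median was 0.35, with 0 called. Marker levels differed between these libraries too: the skeletal muscle sum was 77.3 to 119 CPM in noninjected and 84.5 to 2420 CPM in formalin icKO libraries, the neutrophil sum 305 to 1162 and 706 to 3279 CPM, and the sensory neuron sum 18750 to 24290 and 14530 to 18680 CPM. Their part in the result was not tested.

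Within controls by deposited name the median of the mitochondrial genes was -0.11 (-0.14 without mt-Nd3) and 0 genes were called (686 at an unadjusted p under 0.05, 0 by DESeq2). With both genotypes pooled 0 genes were called (533 at an unadjusted p under 0.05, 2 by DESeq2). The formalin and genotype comparisons above share libraries, so their values are not separate evidence of each other.

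Summed over the libraries of an animal (for the animal titled icKO 1, the noninjected library alone), the genotype difference by deposited name was smaller and no member was called, beside 1.08% of 19441 genes (edgeR; 3 of 31 members at an unadjusted p under 0.05, beside 16.9% of genes). The mitochondrial median was -0.27 and the nuclear median -0.06, with mt-Nd2 at -0.39 (SE 0.17, adjusted p = 0.279), Uqcrc2 at -0.14 (SE 0.06, adjusted p = 0.278) and Uqcrfs1 at 0.15 (SE 0.07, adjusted p = 0.291). Without the icKO 5 formalin library 1 member was called, a mitochondrial gene that was lower, with no share of all genes beside it here. With that library kept, Prdm12 fell by 1.92.

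By title, no gene was called between icKO and control in any of the 3 comparisons (edgeR; 1538 genes at an unadjusted p under 0.05 in noninjected, 2222 with formalin and 1815 in animal totals; DESeq2 called 1, 15 and 67). In noninjected ganglia the mitochondrial median by title was -0.08 (-0.05 without mt-Nd3) and mt-Cytb was at -0.05 (SE 0.20). Sdhb, the iron-sulfur subunit of complex II, had the smallest p of the members at -0.20 (SE 0.07, edgeR adjusted p = 0.549). With formalin the mitochondrial median by title was 0.25. Mitochondrial genes were thus called lower in noninjected icKO ganglia by the deposited-name record and not by title. Those calls rest on few animals, as given above. Prdm12 itself was not called by title either. Its log2 difference by title was -0.92 (SE 0.64, edgeR adjusted p = 0.682) in noninjected ganglia and -0.77 (SE 0.68, adjusted p = 0.639) with formalin. By deposited name it was -1.70 in noninjected ganglia (SE 0.20, edgeR adjusted p = 8.09e-05).

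In the 6 animals whose records agree (titled control 2, control 3, control 5, icKO 1, icKO 4 and icKO 5), 0 members were called in noninjected libraries (edgeR, beside 831 of 17669 genes, or 4.7%), with a mitochondrial median of -0.56 and a nuclear median of -0.16. With formalin the mitochondrial median was 0.38, with 0 members called beside 9.14% of genes. In animal totals 0 members were called, beside 0.897% of 19063 genes (edgeR; 1 member, Uqcrfs1, at an unadjusted p under 0.05, beside 19.1% of genes), with a mitochondrial median of -0.14.

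Promoters of the nuclear members were searched on both strands for 2 motifs of factors known to act on respiratory genes, in RefSeq promoters (GRCm38.p6) that run from 250 bases before to 50 after the start. Of the 23 nuclear members 18 had a promoter in that table. A member was counted if any of its promoters held the motif. The share of all is over single promoters, so the member counts and that share are not on a like basis. The nuclear respiratory factor 1 motif GCGCANGCGC was found in 3 of 18 (Cox6a1, Sdha and Uqcrc1) and in 4.6% of all 32851 promoters. The motif CCGGAAG, bound by ETS factors such as Gabpa, was found in 4 of 18 (Cox6a1, Cox6b1, Cox8a and Sdhb) and in 8.86% of all. Uqcrc1, which rose in noninjected icKO ganglia, holds the first motif, and so does Cox6a1, at a log2 difference of 0.10 (SE 0.10) that was not called.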

How the data were processed

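Raw counts per gene were deposited by the authors, 1 file per library. Per the submitters' processing notes the build was GRCm39 and the tools featureCounts 2.0.1, STAR 2.7.8a and bcl2fastq 2.20.0.422; no source used here gives the annotation release, strand setting or treatment of reads matching several places. Per the labels' protocols the kit does not mark strand. Symbols were matched for 94% of identifiers. Counts were tested with edgeR 4.0.16 (R 4.3.3; TMM, filterByExpr, robust quasi-likelihood, sex as covariate, Benjamini-Hochberg, threshold 0.05), with DESeq2 1.42.0 as an alternative; the script was tested on simulated data. The 4 groups of genotype by agent shared 1 fit, in which libraries of 1 animal were treated as independent. CPM use TMM-scaled totals. Formalin and noninjected libraries with the same animal number in their deposited names come from 1 animal; their deviations from group means correlated at -0.03 to 0.43, over 0.1 in 8 of 9 animals. In the animal totals each animal is 1 replicate. Shared stretches of 50 bases were searched in GENCODE M21 transcripts. Other settings tried were RLE factors, scaling without mitochondrial genes, library totals, no filter, no sex term, an animal block and leaving out animals. Named were all members, members past the threshold and the highest of each complex with every value, and from other lists up to 4 called genes or else the 2 smallest p. Members and lists were chosen with earlier results of these data known. One marker gene's own result is not reported here.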

Additional observations from a re-analysis of the deposited data

Results flagged for a closer look

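In 5 of the 64 sets of 4 or 5 libraries checked, 1 library stood far from the rest of its group. Chance flags about 1 in 20 such sets where the sets are independent. These share libraries, and mt-Nd1 and mt-Cytb are part of the mitochondrial sum, so the 5 flagged sets are not independent of each other. The library titled control 3 noninjected, among noninjected controls by deposited name, was the highest in 4 of them: its mitochondrial sum was 66680 CPM against 49070 CPM in the next library, its nuclear sum 7043 against 6082 CPM, its mt-Nd1 level 12080 against 7465 CPM and its mt-Cytb level 15200 against 11280 CPM. Without that animal 0 members were called in the noninjected comparison and the mitochondrial median was -0.50. The library titled control 4 noninjected had 472.3 CPM of Cox4i1 against 409.1 CPM in the next of the noninjected icKO libraries by deposited name.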

How the results depend on the processing

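No called result changed direction under any setting run; the uncalled mitochondrial median with formalin by deposited name was 0.12, and -0.07 without the icKO 5 formalin library. In the noninjected comparison by deposited name, the 9 called members became 14 with no low-count filter, 2 without the sex term and 0 in the 6 animals whose records agree, an alternative chosen after seeing the data; leaving out each animal gave 0 to 10. RLE factors, scaling without mitochondrial genes and library totals each gave 9, DESeq2 gave 11 and leaving out the icKO 5 formalin library gave 12. The count of all called genes was 1504, with 2421 without the filter and 2261 by DESeq2; leaving out each animal gave 345 to 2129. Where 0 members were called, no filter gave 2 in animal totals by deposited name and 1 with formalin by title. It gave 10 for formalin within icKO and 11 for the interaction. For the last pair DESeq2 gave 10 and 6, beside 6.25% and 4.74% of all genes. Leaving out each animal gave 0 to 7 and 0 to 5 members for that pair, with 0 to 1990 and 0 to 1762 of all genes called. Leaving out the icKO 5 formalin library gave 1 in animal totals by deposited name. Where no count of all genes is given here for a setting, its member count is not set against a share. The causes of these changes were not tested. With the animal as a replicate block, 0 members were called in the formalin comparisons, as without it. A block on the title number, which different animals share without being paired, also gave 0 in the comparisons by title. The noninjected comparison by deposited name, between different animals, was not blocked. The 5 icKO animals give 4 formalin libraries, and the number of animals limits the precision.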
